A study of Ambystoma mexicanum with 18 samples.

Results

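The genes described here mark haematopoietic and myeloid cells. The group was named as 10 genes, PTPRC, SPI1, CSF1R, CSF3R, TYROBP, LCP1, CORO1A, MPEG1, BTLA and TREML1, chosen by their counts, which differed between Tig1-overexpressing and control cells in these same libraries. Each gene was found by its symbol in the table of 99126 gene rows, and where several rows carried one symbol the row with the highest mean count was used. Of the 10 genes 9 had a row, and all 9 passed the filter of 0.5 CPM (counts scaled to library size) in at least 1 library, as 25377 genes did. TYROBP, an adaptor that carries activating signals from myeloid receptors in mammals, had no row under that symbol and is not analysed here.

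The study asked how raised Tig1, a gene of proximal blastema cells, changes cells of the distal axolotl limb blastema, the growth zone that forms after amputation. All animals carried the Hoxa13:mCherry reporter, a knock-in that expresses mCherry with Hoxa13 and so marks distal cells. A plasmid for Tig1-T2a-GFP, or for Tig1P155A-T2a-GFP, which carries an amino acid substitution in Tig1, was electroporated into blastemas once the mCherry+ domain was visible, and cells were taken at 3 or 8 days post electroporation (dpe). Tig1 and Tig1P155A cells were sorted as mCherry+/GFP+ and control cells as mCherry+/GFP-, after removal of the epidermis and pooling of blastemas within each condition. The 6 groups were Tig1, Tig1P155A and control cells at 3 dpe and the same at 8 dpe, each with 3 SMARTseq2 libraries of 300 cells. Control cells were thus cells that did not take up or express the plasmid. Cells electroporated with GFP alone were not among the groups, so an effect of Tig1 and an effect of the electroporation or of the GFP+ gate cannot be told apart in any comparison with control.

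PTPRC encodes CD45, the tyrosine phosphatase on the surface of all nucleated blood cells of mammals, and SPI1 encodes PU.1, the transcription factor that directs myeloid and B cell development in mice. CSF1R and CSF3R are the receptors through which macrophages and granulocytes receive their survival and growth signals. In salamander limbs macrophages enter the wound early and are needed for a blastema to form.

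Libraries held 9732514 to 23086124 counts, and mitochondrial genes took 18.4% to 65.4% of them. Values are CPM scaled by TMM factors, which lay between 0.511 and 1.49, and 3 counts corresponded to 0.0871 to 0.455 CPM. The row that the study pairs with Tig1 had 151 to 514 CPM in the 12 overexpressing libraries, against 2.85 to 8.81 CPM in the 6 control libraries. Both genes checked as markers of the sorted cells were lower in overexpressing libraries, with overlap for PRRX1. HoxA13, the gene that carries the reporter, had 2.19, 14.3 and 40.4 CPM as lowest, median and highest value in overexpressing libraries and 77.0, 81.7 and 116 CPM in control libraries (log2 difference −2.56, SE 0.33, edgeR adjusted p 6.09e-06). PRRX1, a limb mesenchyme transcription factor, had 1.18, 4.01 and 9.74 CPM in overexpressing libraries and 3.59, 13.4 and 22.7 CPM in control libraries (log2 difference −1.72, edgeR adjusted p 0.000198). HoxA13 was counted in every library, with 37 reads at the fewest.

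PTPRC lies on chromosome arm 1q (AMEX60DD018338, minus strand, 622255715 to 623370198 of AmexG_v6.0-DD). Its model overlaps 2 models on the other strand. One of them, ATP6V1G3, held 71 reads in overexpressing and 142 in control libraries, beside 411 control reads of PTPRC. The strand setting is not given, so the division of control reads between them is uncertain. PTPRC had 343, 360.3 and 317 CPM in Tig1 cells at 3 dpe, 379, 368 and 391 CPM in Tig1P155A cells, and 3.32, 0 and 8.57 CPM in control cells. At 8 dpe it had 191, 379.6 and 310.4 CPM in Tig1 cells, 230.0, 304 and 359 CPM in Tig1P155A cells, and 1.15, 1.32 and 2.51 CPM in control cells. All 12 overexpressing libraries were above all 6 control libraries, and the lowest of them was 22.3 times the highest control. The ratio of means was 85.9 for Tig1 and 95.8 for Tig1P155A at 3 dpe, and 177 for Tig1 and 179 for Tig1P155A at 8 dpe. In bulk libraries, more cells of a type and more RNA per cell cannot be told apart. The contrast with control chose these genes, so their differences from control are a description and no test is given. For each of the 9 genes, every overexpressing library exceeded the 3 controls of its own time, which was so for 10.9% of all tested genes, and nothing is read from this count.

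SPI1 (AMEX60DD005314, 11q, minus strand, 703203285 to 703328055) was nearly without reads in control cells. It had 25.2, 43.8 and 73.5 CPM in Tig1 cells and 79.3, 35.1 and 49.5 CPM in Tig1P155A cells at 3 dpe, against 2, 0 and 9 reads in the control libraries, at most 0.365 CPM. At 8 dpe SPI1 had 15.9, 22.9 and 35.5 CPM in Tig1 cells and 74.6, 31.4 and 26.8 CPM in Tig1P155A cells, against 0, 2 and 1 reads in control libraries. The groups did not overlap, and the 6 control libraries together held 14 reads. The ratio of means at 3 dpe was 312 for Tig1 and 359 for Tig1P155A. At 8 dpe only 3 control reads were counted, so reads pooled over the libraries of a group and scaled to their summed size were compared instead. This pooled ratio was 568 for Tig1 (95% counting interval 194 to 2760) and 915 for Tig1P155A (313 to 4442). These intervals cover counting error only, and the pooled ratios are not ratios of means.

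CSF1R, the macrophage colony-stimulating factor receptor (AMEX60DD030145, 3q, plus strand, 672015544 to 672323311), had reads in every library. At 3 dpe it had 392, 409 and 473 CPM in Tig1 cells, 617, 642 and 520.2 CPM in Tig1P155A cells, and 4.18, 0.290 and 3.65 CPM in control cells. At 8 dpe CSF1R had 263, 504 and 477 CPM in Tig1 cells, 299, 412 and 430.1 CPM in Tig1P155A cells, and 2.06, 0.659 and 2.77 CPM in control cells. CSF1R and CORO1A were the only 2 of the 9 genes with reads in all 6 control libraries. Its ratios of means were 157 and 227 for Tig1 at 3 and 8 dpe, and 219 and 208 for Tig1P155A.

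CSF3R, the granulocyte colony-stimulating factor receptor (AMEX60DD005900, 11q, plus strand, 986508854 to 986773052), came closest to its control libraries. At 3 dpe it had 13.7, 23.5 and 5.24 CPM in Tig1 cells, 11.6, 13.0 and 8.01 CPM in Tig1P155A cells, and 0.409, 0.0581 and 2.15 CPM in control cells. In 8 dpe libraries CSF3R had 5.35, 12.6 and 7.17 CPM in Tig1 cells, 11.2, 11.5 and 11.1 CPM in Tig1P155A cells, and 5, 0 and 0 reads in control libraries. The lowest overexpressing library was 2.43 times the highest control, and 53 of the 69 control reads came from control 3 dpe replicate 3. The ratios of means were 16.2 for Tig1 and 12.5 for Tig1P155A at 3 dpe, and 153 for Tig1 and 207 for Tig1P155A at 8 dpe. Without control 3 dpe replicate 3 the fitted log2 differences of CSF3R at 3 dpe were 5.86 for Tig1 and 5.49 for Tig1P155A, in place of 4.02 and 3.65, and without control 3 dpe replicate 2 they were 3.34 for Tig1 and 2.97 for Tig1P155A. The 8 dpe ratios rest on 5 control reads, all in control 8 dpe replicate 1, without which no control read of CSF3R remained at that time. Without control 8 dpe replicate 3 the fitted differences at 8 dpe were 6.34 for Tig1 and 6.76 for Tig1P155A, in place of 6.94 and 7.37.

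**Figure D1:**
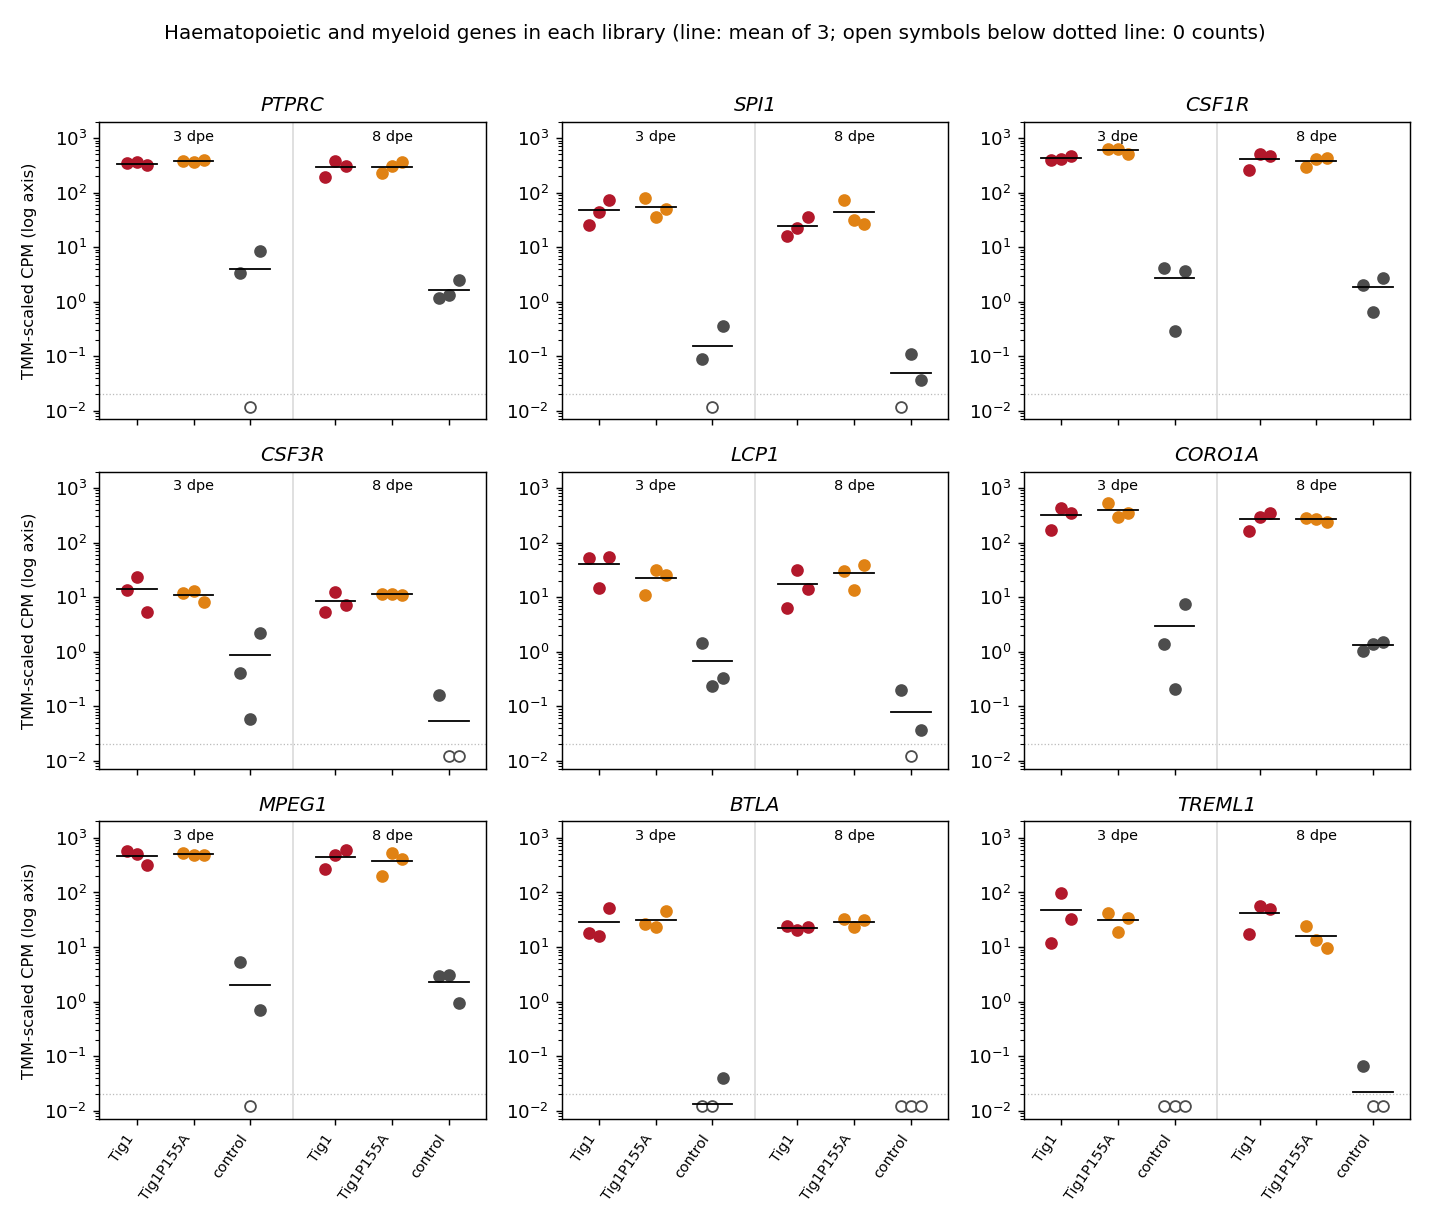
Level of each of the 9 genes in each of the 18 libraries, with groups on the horizontal axis and CPM on a logarithmic vertical axis. Each point is 1 library, and libraries without a read are drawn at the bottom. The overexpressing libraries lie above the control libraries of their time for every gene, with the narrowest gap for CSF3R.

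LCP1 encodes L-plastin, an actin-bundling protein of leukocytes (AMEX60DD049054, 7q, plus strand, 498370856 to 498594739). It had 52.0, 14.4 and 53.6 CPM in Tig1 cells and 10.7, 31.0 and 25.9 CPM in Tig1P155A cells at 3 dpe, against 1.45, 0.232 and 0.325 CPM in control cells. In 8 dpe libraries LCP1 had 6.25, 32.0 and 13.8 CPM in Tig1 cells and 30.1, 13.6 and 39.2 CPM in Tig1P155A cells, against 6, 0 and 1 reads in control libraries. Replicates of one group differed widely, but no overexpressing library reached down to a control, with a gap of 4.30 times. The ratio of means was 59.7 for Tig1 and 33.6 for Tig1P155A at 3 dpe. At 8 dpe it was 223 for Tig1 and 356 for Tig1P155A.

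CORO1A encodes coronin 1A, an actin regulator of leukocytes (AMEX60DD028400, 3p, plus strand, 780702977 to 780862241). At 3 dpe it had 168, 437 and 349 CPM in Tig1 cells, 529, 291 and 352 CPM in Tig1P155A cells, and 1.41, 0.203 and 7.43 CPM in control cells. At 8 dpe CORO1A had 165, 292 and 347 CPM in Tig1 cells, 280.4, 272 and 242 CPM in Tig1P155A cells, and 1.05, 1.37 and 1.48 CPM in control cells. The groups did not overlap, and 183 of the 318 control reads came from control 3 dpe replicate 3. The ratios of means were 105 and 206 for Tig1 at 3 and 8 dpe, and 129.6 and 204 for Tig1P155A.

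MPEG1 encodes perforin-2, a pore-forming protein that macrophages direct against engulfed bacteria (AMEX60DD007220, 12q, plus strand, 215067930 to 215070846). It was the row used of 5 with that symbol and held 98.5% of their reads. At 3 dpe it had 587, 508 and 317 CPM in Tig1 cells, 531, 486 and 490.1 CPM in Tig1P155A cells, and 5.27, 0 and 0.690 CPM in control cells. At 8 dpe MPEG1 had 274, 485 and 600.0 CPM in Tig1 cells, 201, 532 and 414 CPM in Tig1P155A cells, and 2.91, 3.02 and 0.960 CPM in control cells. MPEG1 reads of copies with near-identical sequence may have been lost or moved between rows, since only uniquely aligned reads were counted. The ratios of means were 237 and 197 for Tig1 at 3 and 8 dpe, and 253 and 166 for Tig1P155A.

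BTLA and TREML1, receptors of the immunoglobulin family, were almost without reads in control libraries. BTLA, an inhibitory receptor of lymphocytes and some myeloid cells in mammals (AMEX60DD047098, 7p, plus strand, 147562219 to 147769059), had 17.9, 16.2 and 51.1 CPM in Tig1 cells at 3 dpe and 26.2, 23.4 and 45.2 CPM in Tig1P155A cells. At 8 dpe BTLA had 23.8, 20.8 and 23.2 CPM in Tig1 cells and 32.7, 23.6 and 31.1 CPM in Tig1P155A cells. A single BTLA read was counted over the 6 control libraries, in control 3 dpe replicate 3. TREML1, a receptor of platelet granules in mammals (AMEX60DD009191, 13p, minus strand, 230709642 to 230758288), had 11.9, 96.0 and 33.1 CPM in Tig1 cells at 3 dpe and 42.2, 19.2 and 34.3 CPM in Tig1P155A cells. At 8 dpe TREML1 had 17.3, 57.2 and 49.0 CPM in Tig1 cells and 24.8, 13.5 and 9.75 CPM in Tig1P155A cells, and the only 2 control reads were in control 8 dpe replicate 1. The TREML1 model overlaps LOC115650876 on the same strand, which held 9782 reads in overexpressing and 35 in control libraries, so the division of reads between them is uncertain.

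The 9 genes differed in how even they were across the 12 overexpressing libraries. PTPRC had a coefficient of variation of 18.9%, and only 6.14% of the 11408 genes at 4 CPM or more had a smaller one, against a median of 36.1% over those genes. CSF1R and MPEG1 followed with 24.8% and 27.9%, CORO1A with 33.3% and BTLA with 38.0%. CSF3R had 43.5%, SPI1 51.1%, LCP1 58.7% and TREML1 72.8%. The 4 genes with the most reads thus had the 4 smallest values. In Tig1 8 dpe replicate 1, 5 of the 9 genes had their lowest overexpressing value. That library's 9 genes summed to 962 CPM, its macrophage markers to 4557 CPM and its connective tissue markers to 10069 CPM, the highest connective tissue sum of the 12. In Tig1P155A 3 dpe replicate 1 the 9 genes summed to 2226 CPM, macrophage markers to 11276 CPM and connective tissue markers to 754 CPM, the other end of all these ranges. Over all libraries the 9 genes summed to 962 to 2226 CPM in overexpressing and 0.784 to 23.2 CPM in control libraries.

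Reads of these genes were few but present in control libraries, and they were unevenly spread over them. Control 3 dpe replicate 3 reached 17.2% of the mean overexpressing level at that time for CSF3R, 2.38% for PTPRC and 2.10% for CORO1A. Control 3 dpe replicate 1 reached 4.65% for LCP1, 3.27% for CSF3R and 1.08% for MPEG1. Control 3 dpe replicate 2 had no read of PTPRC, SPI1 or MPEG1 and reached 0.0571% for CSF1R and 0.0574% for CORO1A. The control library with the highest share therefore differed from gene to gene. Without control 3 dpe replicate 3 the fitted log2 differences of Tig1 from control at 3 dpe were 7.62 for PTPRC, 8.56 for CORO1A and 9.98 for SPI1, in place of 6.43, 6.73 and 8.31. Without control 3 dpe replicate 2, the library with the fewest reads of these genes, the differences were smaller, at 5.72 for PTPRC, 6.04 for CORO1A, 7.52 for SPI1, 7.21 for MPEG1 and 6.65 for CSF1R. Without control 3 dpe replicate 1 they were 10.5 for MPEG1 and 7.15 for LCP1, in place of 7.91 and 5.93, and the CSF1R value with all libraries was 7.30. For Tig1P155A at 3 dpe the same libraries moved the same genes in the same directions. At 8 dpe the LCP1 difference of Tig1 was 9.22 without control 8 dpe replicate 1 and 6.65 without Tig1 8 dpe replicate 2, in place of 7.53, and that of Tig1P155A was 9.89 without control 8 dpe replicate 1, in place of 8.19. For SPI1 the 8 dpe difference of Tig1 lay between 8.33 without control 8 dpe replicate 1 and 10.01 without control 8 dpe replicate 2.

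**Figure D2:**
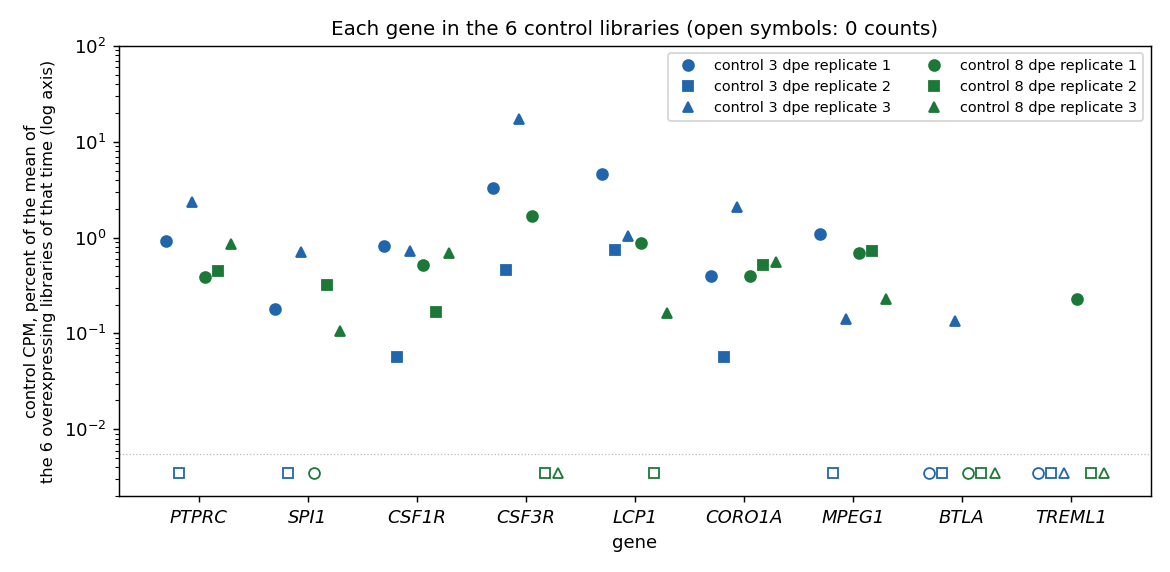
CPM of each gene in each control library as a percentage of the mean of the 6 overexpressing libraries of the same time, on a logarithmic axis. Symbols give the control library, and open symbols at the bottom mark 0 counts. CSF3R in control 3 dpe replicate 3 stands highest, at 17.2%, and BTLA and TREML1 have 1 point each above 0.

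Pooled proportions of the genes to each other rested on few control reads. For each 100 PTPRC reads, pooled over libraries, CSF1R had 137 reads in overexpressing and 83.2 in control libraries, and CORO1A had 85.9 and 77.4. For MPEG1 the pooled values were 137 in overexpressing and 73.7 in control libraries, but the medians over libraries were 136 in overexpressing and 159 in control libraries, the other direction. SPI1 had 11.4 in overexpressing and 3.41 in control libraries. CSF3R had 3.27 in overexpressing and 16.8 in control libraries, mostly from control 3 dpe replicate 3, with medians of 3.20 in overexpressing and 12.3 in control libraries. LCP1 had pooled values of 8.76 in overexpressing and 13.4 in control libraries, with 32 of 55 control reads in control 3 dpe replicate 1, and medians of 7.52 in overexpressing and 3.79 in control libraries, again the other direction. BTLA had 8.33 in overexpressing and 0.243 in control libraries, which held 1 BTLA read where the overexpressing proportion would give 34.2. TREML1 had 8.43 in overexpressing and 0.487 in control libraries, with 2 reads where that proportion would give 34.6. Library by library the ranges overlapped for SPI1, CSF1R, CSF3R, LCP1, CORO1A, MPEG1 and TREML1, while BTLA had 4.50 to 16.1 in the 12 overexpressing libraries and at most 0.474 in the 5 control libraries with PTPRC reads. These proportions were not tested.

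**Figure D3:**
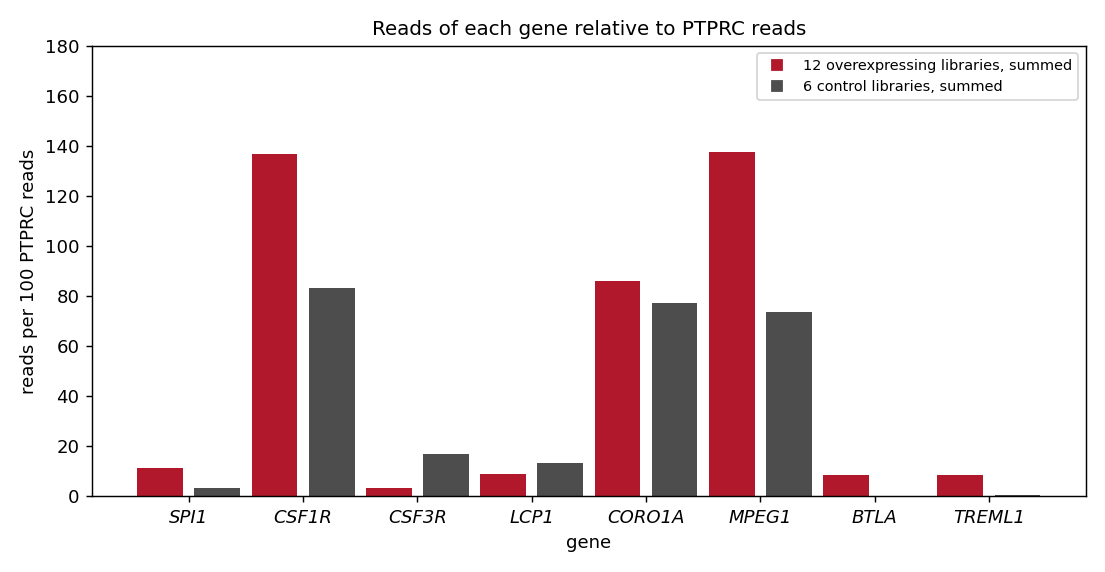
Reads of each gene per 100 PTPRC reads, pooled over the overexpressing libraries and over the control libraries. CSF3R and LCP1 are higher in the control pool, at 16.8 and 13.4, and the other 6 genes are lower there, but by medians over libraries LCP1 is lower and MPEG1 higher in control libraries.

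The 2 forms of Tig1 were compared directly, a contrast that the choice of genes did not use. None of the 9 genes was called between Tig1 and Tig1P155A cells at 3 dpe, at 8 dpe or on average (edgeR adjusted p under 0.05 over all genes tested), and 0 of the 9 had an unadjusted p under 0.05. Over all tested genes the calls were 0.00394%, 0% and 0% of genes, with 1503, 1169 and 1757 genes at an unadjusted p under 0.05, while DESeq2 called 96, 23 and 70 genes, none of them among the 9. TREML1 had the largest mean difference, 0.96 on the log2 scale (SE 0.46, 95% interval −0.00 to 1.93, edgeR adjusted p 0.717). At 8 dpe its difference was 1.37 (95% interval −0.01 to 2.75, edgeR adjusted p 0.921), with 17.3 to 57.2 CPM in Tig1 and 9.75 to 24.8 CPM in Tig1P155A cells, ranges that overlap. SPI1 had −0.52 (−1.42 to 0.38), BTLA −0.26 (−0.93 to 0.42) and CSF1R −0.18 (−1.01 to 0.66). CORO1A had −0.14 (−1.13 to 0.85), PTPRC −0.09 (−1.25 to 1.07) and CSF3R −0.03 (−1.27 to 1.22). LCP1 and MPEG1 both had 0.08, with intervals of −0.98 to 1.14 and −1.14 to 1.29. Each interval spans 0, which does not show that the forms act alike.

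Time was the next comparison. Between 8 and 3 dpe none of the 9 genes was called in Tig1 cells, in Tig1P155A cells or in the mean of both forms, where 0.0512%, 1.38% and 5.97% of all tested genes were (edgeR adjusted p under 0.05). Unadjusted p was under 0.05 for 0 of the 9 in these 3 comparisons, and DESeq2 called none of the 9. All 9 mean differences were below 0. They ran from −0.62 for SPI1 (−1.53 to 0.28) and −0.59 for TREML1 (−1.55 to 0.37) to −0.23 for BTLA (−0.90 to 0.45) and MPEG1 (−1.44 to 0.99), with a lowest edgeR adjusted p of 0.476. LCP1 had −0.46 (−1.51 to 0.60), CORO1A −0.40 (−1.39 to 0.59) and CSF3R −0.35 (−1.60 to 0.90). CSF1R had −0.34 (−1.17 to 0.50) and PTPRC −0.28 (−1.44 to 0.88). The 9 genes share libraries, and their common sign counts once.

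In control cells 0.422% of all tested genes were called between 8 and 3 dpe, and none of the 9 (edgeR), with 2 of the 9 at an unadjusted p under 0.05. BTLA had 1 control read at 3 dpe and 0 at 8 dpe, and TREML1 had 0 and 2. Both passed the filter only through overexpressing libraries and had too few control reads for a call, so nothing is read from them here. SPI1 had 11 control reads at 3 dpe and 3 at 8 dpe. CSF3R had a difference of −3.67 (95% interval −5.97 to −1.37, edgeR adjusted p 0.200), with 5, 0 and 0 reads at 8 dpe and 9, 2 and 53 at 3 dpe. Without control 3 dpe replicate 3 it was −1.76. LCP1 had −2.80 (−4.88 to −0.73, edgeR adjusted p 0.333), with 6, 0 and 1 reads at 8 dpe and 32, 8 and 8 at 3 dpe, and −1.58 without control 3 dpe replicate 1. DESeq2 called CSF3R alone of the 9, with −3.88 and an adjusted p of 0.0170. An overexpression effect at 8 dpe unlike that at 3 dpe was called for 0.142% of tested genes and for none of the 9. BTLA and TREML1 had too few control reads for this comparison too. CSF3R had 3.32 (0.73 to 5.91, edgeR adjusted p 0.386) and LCP1 2.35 (0.03 to 4.66, edgeR adjusted p 0.521), the only 2 of the 9 at an unadjusted p under 0.05. Without control 3 dpe replicate 3 the CSF3R value was 1.43, and without control 3 dpe replicate 1 the LCP1 value was 1.12.

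**Figure D4:**
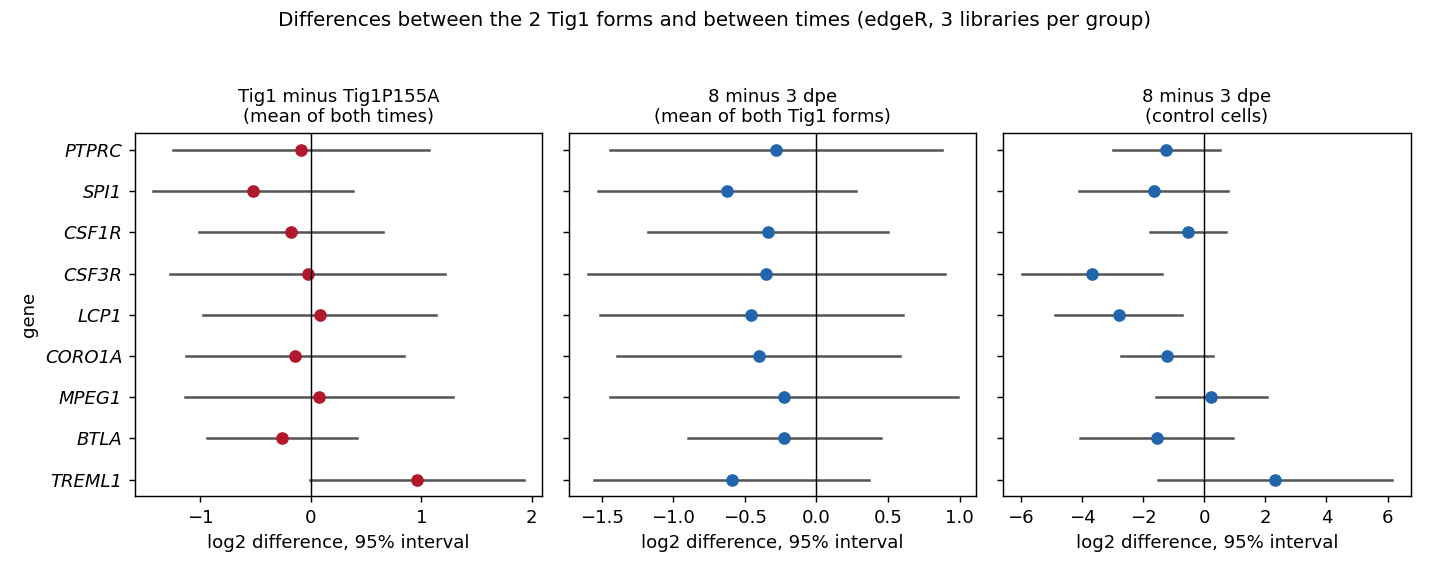
Fitted log2 differences of the 9 genes with 95% intervals, for Tig1 minus Tig1P155A, for 8 minus 3 dpe in overexpressing cells and for 8 minus 3 dpe in control cells. The intervals span 0 for all 9 genes in the first 2 comparisons, and lie below 0 in control cells for CSF3R and LCP1. In control cells BTLA rests on 1 read and TREML1 on 2 reads, so nothing is read from their intervals there.

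The nearest profiles over the 18 libraries were found for PTPRC, SPI1, CSF1R and BTLA. Likeness was the root mean square difference of log2(CPM + 1) after each gene's mean was removed. RAC2, a small GTPase of blood cells, was nearest to PTPRC at 0.352, followed by ALOX5AP, a protein of leukotriene synthesis, at 0.379 and CD300C, an immunoglobulin-family receptor, at 0.397. RAC2 had 231, 392 and 573 CPM as lowest, median and highest value in overexpressing libraries and 0.552, 3.08 and 8.85 CPM in control libraries. ALOX5AP was also nearest to CSF1R, at 0.286, before CD101 at 0.380 and AIF1, a calcium-binding protein of macrophages, at 0.385. PTPN18 at 0.389 and SLC43A2 at 0.398 were among the 3 nearest to SPI1. Nearest to BTLA were TMEM130 at 0.373, IPCEF1 at 0.395 and DOCK11 at 0.404. These neighbours depended on the value added to CPM. With 0.5 or 8 in place of 1, TMEM130 stayed among the 3 nearest to BTLA, but IPCEF1 and DOCK11 did not. For SPI1, PTPN18 stayed with 8 but not with 0.5, and SLC43A2 with neither. RAC2 and ALOX5AP stayed for PTPRC, and ALOX5AP and AIF1 for CSF1R, with either value. All 18 libraries enter the measure, so the contrast with control weighs heavily in it.

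Further genes of the same pathways were taken from 5 lists of 114 genes, of which 75 were tested. On the mean of the 4 comparisons with control, which share their control libraries, 63 were higher and 3 lower in overexpressing cells (edgeR adjusted p under 0.05), with a median log2 difference of 5.14, or 5.05 when genes with a group at 0 reads were set against 3 reads. Over all tested genes 21.4% were higher and 18.7% lower, with a median of 0.05. The lists were chosen with earlier results of these data known. Some of the 63, among them LYL1, IL2RG, EPO, CARD9, MYO1G, VAV1, FCER1G, PDCD1 and CD200R1, had at most 0.318 CPM in control libraries. These genes passed the filter only through overexpressing libraries, so nothing is read from their calls. The counts and medians given for the lists still include them. In the separate comparisons, 59 of the 75 were higher and 0 lower for Tig1 at 3 dpe, where 15.5% and 8.48% of all tested genes were, and 58 higher and 2 lower for Tig1P155A at 3 dpe, where 15.1% and 11.5% were. At 8 dpe the counts were 59 higher and 0 lower for Tig1, beside 10.6% and 1.29% of all tested genes, and 57 higher and 1 lower for Tig1P155A, beside 10.6% and 1.72%. Of the transcription factors, 13 of 20 were higher and 2 lower, and of the growth factors and receptors 6 of 11 were higher and 1 lower.

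RUNX3, a factor of lymphoid and myeloid cells, rose by a log2 difference of 4.98, with 47.1 to 152 CPM in overexpressing libraries and at most 4.59 CPM in control libraries, and CEBPB, a factor of inflammatory myeloid genes, by 4.03. MEF2C, a factor of myeloid and muscle cells, rose by 2.98. MYB, a factor of haematopoietic progenitors, fell by 2.67 (edgeR adjusted p 0.0143), with 110 reads in overexpressing and 192 in control libraries. Of its separate comparisons only Tig1P155A at 3 dpe, a group without MYB reads, was called (−6.85, edgeR adjusted p 0.0137). Tig1 at 8 dpe had −0.17, and the highest overexpressing library, at 4.21 CPM, exceeded the highest control, at 1.87 CPM. TAL1, which starts blood development in mice, fell by 4.81 (edgeR adjusted p 0.0148), with 2 reads in overexpressing and 73 in control libraries. Its highest control library had 2.86 CPM, against a mean of 0.983 CPM (SD 1.63) in 3 dpe and 0.0778 CPM in 8 dpe controls. None of the 4 separate comparisons of TAL1 was called (edgeR adjusted p 0.0706 to 0.830). TAL1 lost its call without control 8 dpe replicate 1 (adjusted p 0.0856). Of the receptors, CSF2RB, the shared chain of the GM-CSF, IL-3 and IL-5 receptors, rose by 7.85, IL6R by 6.09 and IL10RA by 3.89. KIT, the stem cell factor receptor, fell by 3.86 (edgeR adjusted p 0.00039), with 50 reads in overexpressing and 449 in control libraries, and its ligand KITLG had 0.21 (edgeR adjusted p 0.873). In the separate comparisons KIT was called for Tig1P155A at 3 and 8 dpe (edgeR adjusted p 0.0131 and 0.0487) but not for Tig1 (0.112 and 0.159). MYB, TAL1 and KIT were the 3 genes of the 5 lists that were lower. The adjusted p of each transcription factor and receptor named here as higher was at most 3.57e-06 (edgeR).

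All 22 tested genes of ITAM adaptors and their kinases and all 19 of the leukocyte actin cytoskeleton and integrins were higher, with median log2 differences of 6.19 and 6.28. VAV1 of the ITAM list had no control read, so it could not have been called lower. CARD9 and FCER1G of that list and MYO1G of the cytoskeleton list had at most 0.227 CPM in any control library. These 3 genes passed the filter only through overexpressing libraries, so nothing is read from their calls. The tetraspanin CD53 rose by 7.09, with 498 to 1512 CPM in overexpressing libraries and at most 21.4 CPM in control libraries. The adaptor FYB1 rose by 7.66, SKAP2 by 4.83 and the Src-family kinase LYN by 4.20. FCER1G, an ITAM adaptor of Fc receptors named here after its values were seen because TYROBP had no row, had 68 reads in overexpressing and 3 in control libraries (log2 difference 3.85, edgeR adjusted p 0.0125). None of the 4 separate comparisons of FCER1G was called (edgeR adjusted p 0.0877 to 0.293). Of the cytoskeleton list, RAC2 rose by 6.74 and ARPC1B by 3.02, and CAPG, an actin-capping protein, was also higher. ARHGDIB, a regulator of small GTPases, rose by 1.60, with 398 to 1004 CPM in overexpressing libraries and at most 278 CPM in control libraries.

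Only 3 of 17 paired and inhibitory immunoglobulin receptors were tested, and all 3 were higher. CD200R1 rose by 7.64. It had at most 0.318 CPM in control libraries and passed the filter only through overexpressing libraries, so nothing is read from its call. PDCD1 had 110 reads in overexpressing and 0 in control libraries. It passed the filter only through overexpressing libraries and could not have been called lower, so nothing is read from its call (edgeR adjusted p 0.000695). PECAM1, shared by leukocytes and endothelium, rose by 2.03 (edgeR adjusted p 0.0176), above every control of its time in 10 of 12 libraries. None of the 4 separate comparisons of PECAM1 was called (edgeR adjusted p 0.119 to 0.428). Its call was lost when control 3 dpe replicate 3 was left out (adjusted p 0.0528), and likewise for replicate 1 (0.0578) or replicate 3 (0.0544) of the 8 dpe controls.

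**Figure D5:**
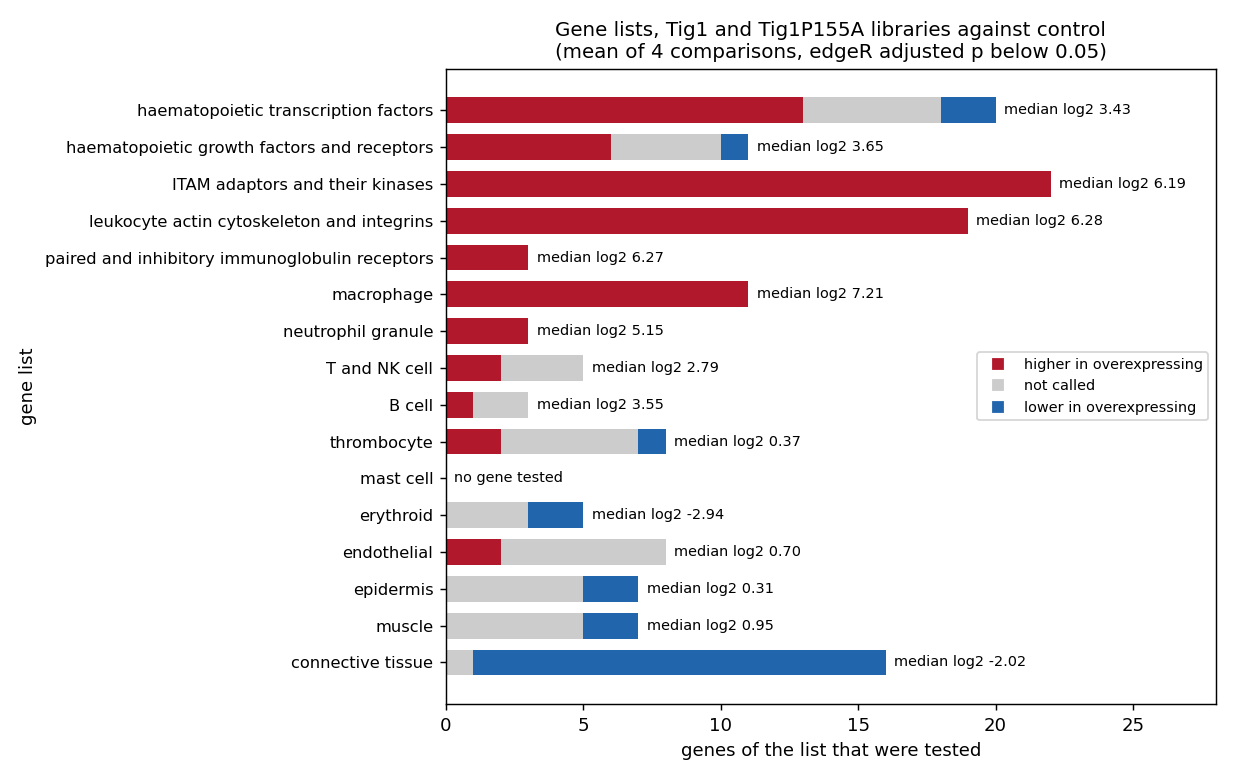
Tested genes of each list, split by whether they were higher, lower or not called in overexpressing against control cells on the mean of the 4 comparisons, with the median fitted log2 difference beside each bar. The macrophage list is higher in all 11 genes, and the connective tissue list is lower in 15 of 16. Genes that passed the filter only through overexpressing libraries are included.

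Several lists of cell type markers also differed between the classes, some higher and some lower, and their part in the results above was not tested. All 11 tested macrophage markers were higher on the mean of the 4 comparisons (median 7.21), where 21.4% of all tested genes were. The list summed to 4557 to 11276 CPM in overexpressing libraries and 19.0 to 134 CPM in control libraries. Of its 15 genes, C1QA, C1QC and CD163 had no row, and MRC1 was below the filter, with 5 reads in overexpressing libraries. VSIG4 passed the filter only through overexpressing libraries. At 8 dpe it was called for neither form (edgeR adjusted p 0.0657 for Tig1 and 0.0752 for Tig1P155A). MARCO, a scavenger receptor, had 1494 to 4691 CPM in overexpressing libraries and at most 30.7 CPM in control libraries, and the complement gene C1QB had 1289 to 3319 CPM and at most 31.7 CPM. Of the neutrophil granule markers 11 of 15 had no row, and the 3 tested, BPI, MMP9 and AZU1, were higher, with a sum of 30.3 to 342 CPM in overexpressing and 0.556 to 10.3 CPM in control libraries. BPI had no control read, so it could not have been called lower. T and NK cell markers summed to 7.81 to 15.5 CPM in overexpressing and 0.110 to 0.727 CPM in control libraries, with 2 of 5 higher, CD247 and CD3E, and CD3D, CD3G, CD4 and CD8A without a row. CD247 and CD3E passed the filter only through overexpressing libraries, so nothing is read from their calls. B cell markers reached at most 5.76 CPM in overexpressing and 0.258 CPM in control libraries, with BLK higher of 3 (edgeR adjusted p 0.000257). BLK had no control read either, and could not have been called lower. No mast cell marker was tested.

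Thrombocyte markers, set beside TREML1 because of its role in mammalian platelets, overlapped between the classes, with a sum of 28.8 to 70.0 CPM in overexpressing and 31.2 to 78.0 CPM in control libraries. Of 8 tested, P2RY12 and ITGA2B were higher and GP1BB lower (log2 difference −2.41, edgeR adjusted p 0.0285). Over all tested genes 21.4% were higher and 18.7% lower, so nothing is read from these counts. ITGA2B, with at most 0.110 CPM in control libraries, passed the filter only through overexpressing libraries, so nothing is read from its call. The GP1BB call was lost without control 3 dpe replicate 2 or control 8 dpe replicate 1. Erythroid markers summed to 0 to 10.8 CPM in overexpressing and 1.54 to 195 CPM in control libraries. The medians of these sums were 1.05 CPM in overexpressing and 2.25 CPM in control libraries. HBA1 and ANK1 were lower of 5, where 18.7% of all tested genes were. The 195 CPM came from 1 control library at 3 dpe, in which HBZ alone reached 181 CPM. Control libraries at 8 dpe had 2.14 to 2.49 CPM. HBA1 had 14 reads in overexpressing and 74 in control libraries (edgeR adjusted p 0.00655), and ANK1 had 20 and 73 (0.0371). Neither gene exceeded 1.04 CPM in any library, and no separate comparison of ANK1 was called. Connective tissue markers, which the sorted mesenchymal cells should carry, were lower in 15 of 16 on the mean of the 4 comparisons, with a median of −2.02. Over all tested genes 18.7% were lower. In the separate comparisons 13 of 16 were called lower at 3 dpe for each form, but only 5 of 16 at 8 dpe. The list summed to 754 to 10069 CPM in overexpressing and 5018 to 16014 CPM in control libraries. COL3A1 fell by 2.35, and POSTN was also lower. On the mean of the 4 comparisons, epidermis and muscle lists each had 2 of 7 lower and none higher, although their medians were 0.31 and 0.95. Over all tested genes 18.7% were lower, so nothing is read from these 2 counts. At 8 dpe alone, MYL1 and MYLPF were called higher for both forms, and 1 muscle marker was lower for Tig1P155A. Over all tested genes 10.6% were higher at 8 dpe for each form, and 1.72% lower for Tig1P155A. MYL1 had 5.66 for Tig1 and 5.42 for Tig1P155A at 8 dpe, but −2.52 and −3.55 at 3 dpe. The 8 dpe muscle sums were 57.4 to 938 CPM for Tig1, 23.2 to 959 CPM for Tig1P155A and 6.70 to 35.0 CPM for control. Their medians were 75.6, 35.8 and 26.3 CPM, so the high end of each form came from 1 library. MYL1 at 8 dpe had a mean of 85.9 CPM (SD 125) for Tig1 and 72.6 CPM (SD 114) for Tig1P155A.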

How the data were processed

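Libraries were made with SMARTseq2 from 300 sorted cells each. The authors demultiplexed the reads with bcl2fastq 2.19.1, aligned them to AmexG_v6.0-DD with STAR 2.7.6a and used featureCounts 2.0.1 to count the reads that aligned to 1 place, by gene. The strand setting is not given in the sources used here. The deposited values are raw counts per gene and library, with no normalization or filter, so duplicate reads are included and the precision of a value follows its count. The 92 spike-in rows, which held no counts, were left out and 37 mitochondrial rows kept. The 18 libraries were described as biological replicates, 3 per group. Whether they came from separate pools of animals is not given, and if not, p-values measure technical spread.

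Counts were tested in R 4.3.3 with edgeR 4.0.16 (TMM, quasi-likelihood, 1 mean per group over 18 libraries, 12 residual degrees of freedom), for genes that reached 0.5 CPM in any library, with Benjamini-Hochberg adjustment over all 25377 genes and a threshold of 0.05. CPM are TMM-scaled, SE is the log2 difference over the square root of F, and intervals are 95%. The script was tested on simulated data. limma 3.58.1, DESeq2 1.42.0, the data.table package (1.17.8), Python 3.11.15 and matplotlib 3.10.9 were also used. Alternatives were DESeq2, its size factors, library size alone, mitochondrial genes left out, every gene with a count, 1 CPM in 3 libraries, only the libraries compared, a replicate block and each library left out. A further setting also asked for a log2 difference of at least 1 in a call.

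The genes and all lists were chosen with earlier results of these data known. Named from each list were the 4 tested genes with the highest mean CPM (2 for marker lists), and for PTPRC, SPI1, CSF1R and BTLA the 3 nearest profiles among genes at 4 CPM or more. Of the genes this rule names, 1 is not reported here. Other list genes were named after their values were seen, among them FCER1G, BPI, ITGA2B, GP1BB, HBA1, ANK1 and ESAM.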

Additional observations from a re-analysis of the deposited data

Results flagged for a closer look

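HHEX (AMEX60DD052633), a homeobox transcription factor of haematopoietic and endothelial progenitors, was the only gene of the lists whose overexpression effect differed between 8 and 3 dpe (log2 difference −6.49, SE 1.20, edgeR adjusted p 0.0457). It had 4.85 to 13.6 CPM in overexpressing cells at 3 dpe and no read in the 3 control libraries. At 8 dpe it had 5.35 to 14.7 CPM in overexpressing cells, against 0.0982, 0.659 and 1.07 CPM in control cells. The size of the difference rests on the control libraries without reads and is no bound. The call was lost in 16 of the 18 fits that left out 1 library, with values between −6.95 and −5.72. With all libraries kept it was also lost with the replicate block (adjusted p 0.0513), DESeq2 size factors (0.0547), the filter of 1 CPM in 3 libraries (0.0553), mitochondrial genes left out (0.0559) and library size alone (0.263), while it was kept with DESeq2 and with every gene that had a count.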

How the results depend on the processing

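All 9 genes lay above the controls of the same time in every overexpressing library kept, under each of the 27 settings. The fit of only the libraries compared and the log2 threshold reuse the main levels and are no separate check of this. Fitted differences of the 9 genes from control stayed above 0 throughout. The contrast with control chose these genes, so nothing is read from either result. The 9 genes gave no call between the forms or between times in overexpressing cells under any setting. With every gene that had a count, 3 of the 9 were called between times in control cells (CSF3R, LCP1 and PTPRC) and 1 in the difference of effects (CSF3R), and DESeq2 called 1 (CSF3R) in control cells. Replicate numbers did not pair the libraries (mean correlation of deviations −0.0254 over same-numbered and 0.0125 over other pairs), and the replicate block changed no call of the 9. Library size alone turned MPEG1 between the forms to −0.030, KITLG to −0.48 and CKM to −0.26, and leaving out mitochondrial genes turned KITLG to −0.0024. These scalings moved the median of all genes by −0.57 and −0.15, and DESeq2 size factors by −0.10. Of all calls 53.3% were higher in overexpressing cells, against 31.5% with library size alone.

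Leaving out single libraries gave Tig1 against Tig1P155A differences of −0.32 to 0.17 for CSF3R, −0.13 to 0.21 for MPEG1, −0.29 to 0.027 for PTPRC and −0.39 to 0.28 for LCP1, and −0.36 to 0.14 between times for BTLA. PTPRC ranged over −1.88 to 0.019 in control cells and −0.28 to 1.62 in the difference of effects, turning without control 3 dpe replicate 3. KITLG ranged over −0.64 to 0.34, ITGB3 over −0.29 to 0.00084, HBZ over −6.38 to 1.55 and CKM over −0.33 to 1.21. Lower calls ranged over 1 to 2 transcription factors, 0 to 1 thrombocyte, 1 to 3 erythroid and 0 to 1 endothelial markers and 0 to 1 pathway genes for Tig1P155A at 8 dpe, and higher calls over 0 to 1 epidermis markers.

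With every gene that had a count, erythroid lower calls were 4, epidermis higher 3, muscle higher 4, endothelial lower 1, and pathway lower 1 for Tig1 at 3 dpe and 2 for Tig1P155A at 8 dpe. DESeq2 gave 1 lower transcription factor, 1 erythroid and 1 T and NK cell marker, and pathway lower counts of 1 for Tig1 at each time and 2 for Tig1P155A at 8 dpe. The stricter filter gave 1 lower transcription factor, 1 lower erythroid and 1 higher endothelial marker. The replicate block gave 1 lower transcription factor, 1 lower erythroid and 1 higher epidermis marker and 0 lower pathway genes for Tig1P155A at 8 dpe, which were 2 without mitochondrial genes and 3 in a fit of the libraries compared. Endothelial lower calls were 1 with DESeq2 size factors, library size alone or mitochondrial genes left out. TAL1 was not called with DESeq2 (adjusted p 0.138) or the replicate block (0.0600), nor PECAM1 with library size alone (0.0603). The causes were not tested. In single control libraries BTLA had at most 1 read and TREML1 at most 2, below the 3 counts taken as the limit of depth. SPI1 was below that limit too, except for 9 reads in control 3 dpe replicate 3.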

Other observations

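Of the 8 tested endothelial markers 2, ROBO4 and ESAM, were higher in overexpressing cells. Over all tested genes 21.4% were higher, so nothing is read from this count. ESAM was above every control of its time in 8 of 12 libraries (edgeR adjusted p 0.0138) and had at most 7.16 CPM. The sum of the list was 50.5 to 179 CPM in overexpressing and 2.13 to 32.7 CPM in control libraries. ROBO4, a guidance receptor of endothelium in mammals, had 45.6 to 106 CPM in overexpressing libraries and at most 1.87 CPM in control libraries (log2 difference 7.05, edgeR adjusted p 3.23e-09), so it made up much of that sum, while VWF had a difference of 0.89 (edgeR adjusted p 0.304). CD247, the ITAM chain shared by T and NK cell receptors, had 3.25 to 14.1 CPM in overexpressing and at most 0.318 CPM in control libraries (log2 difference 8.35). CD3E reached at most 3.37 CPM in any library.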
